A study of Mus musculus with 20 samples.

Results

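The genes described here are the cell cycle and DNA replication genes of the mouse that the array's annotation names by symbol: cyclins, cyclin-dependent kinases with their partners and inhibitors, Cdc genes, the Mcm, Orc, Rfc and DNA polymerase subunits, checkpoint and mitotic kinases, E2f factors, Ndc80 and Cit. They were chosen by a pattern over gene symbols. The pattern uses no measured value, although it was proposed with earlier results of these data known. The pattern found 112 genes of the 13406 genes with a symbol, carried by 118 probes, of which 6 genes had 2 probes. It also took Cdc42 and its effectors, 7 genes, by name, although these are regulators of the actin cytoskeleton, and the main counts are also given without them.

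Each array compared 2 sets of flasks of Hepa1-6, a line of mouse hepatoma cells, that had grown to confluency and stayed in culture for 96 h. The glutamine-varied flasks were moved between 0 mM and 4 mM glutamine at medium exchanges at the start and after 24, 48 and 72 h, and their RNA was labelled with Cy5. The constant-glutamine flasks went through the same exchanges with 4 mM glutamine each time, and their RNA was labelled with Cy3. Both sets had 25 mM glucose, and both were confluent when the glutamine changes began. The 20 arrays belong to 11 numbered time points. Hours, glutamine levels and the source of each second array (another flask or the same RNA again) are not in the labels. P-values that compare time points, or take them singly, rest on the spread between arrays of the same time point. They may therefore cover technical spread alone. P-values of the mean over the course rest instead on the spread among time points. That test counts the time points as independent repeats, although they belong to the same course and glutamine was changed along it. The first array of time point 4 carries a second-channel label that says without glutamine where the other arrays say with glutamine, which was treated as a slip.

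A cell copies its DNA and divides under cyclin-dependent kinases, whose activity rises when a cyclin binds and falls when an inhibitor such as a Cdkn protein binds. Origins are marked by the origin recognition complex (Orc), the Mcm helicase opens them, and the clamp loader (Rfc) and DNA polymerases copy the strands, whereas mitosis needs the kinetochore, the Aurora, Polo-like and Bub kinases and, at its end, cytokinesis. Glutamine supplies the nitrogen of purine and pyrimidine bases, and proliferating cells, hepatoma cells among them, draw on it heavily. Many transcripts of this machinery are made under E2F factors in late G1 and under other complexes in G2 and mitosis.

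Values are log2 ratios, each array centred on its own median. A positive value is taken to mean more transcript in the glutamine-varied flasks than in the constant-glutamine flasks. That direction is likely from the dyes and the order of the channels, but base, direction and normalization are not given in the sources used here. With no dye swap, a steady effect of the dyes on a probe and a steady effect of the flasks cannot be told apart. Ratios in whole-flask RNA likewise cannot tell apart a lower share of cycling cells and less transcript per cell.

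The arrays held 4269 to 8269 values each, 24.7% to 47.85% of 17280 probes. Time points 5 and 11 had 1 array and the others 2, and both arrays of a time point correlated at r = 0.518 to 0.691 over all probes at 7 of them. At time points 6 and 10 the correlations were 0.0539 and -0.0168, and the second array of each was left out, which leaves 18 arrays. The second array of time point 10 had an SD of 2.53, with 111 values at its maximum of 16.92. For the second array of time point 6, which probes had a value correlated at no more than 0.015 with any other array. Single values from these 2 arrays, and results with all 20 arrays, carry this limit. Within each run of 20 probe numbers, the first spot was raised on the arrays of time points 5 and 6, and such spots were left out there. The next places were raised as well. At places 1, 2, 3 and 4 the medians of all probes were 2.72, 1.24, 0.46 and 0.14 at time point 5, and 1.28, 0.33, 0.13 and 0 at time point 6. Of 62 member probes with a value at time point 5, 14 were above 1, and 13 of these 14 stood at places 1 to 4. The member that stood elsewhere was Cdc42ep4. Results that rest on places 2 to 4 are therefore given with and without them.

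**Figure D1:**
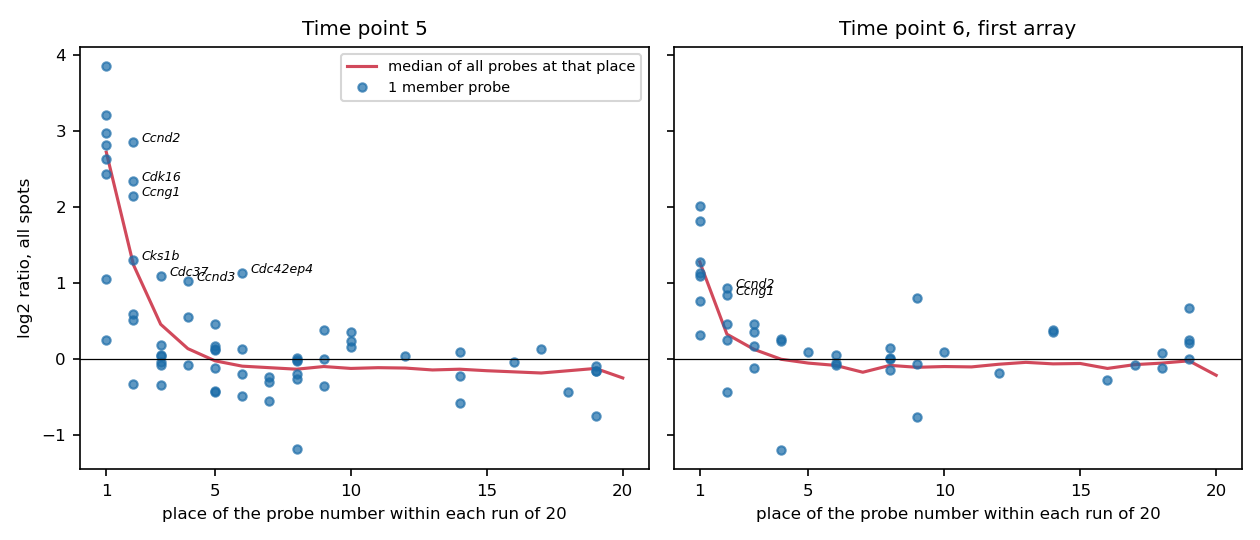
Log2 ratio of each member probe (blue points) at time point 5 (left) and on the first array of time point 6 (right), against the place of its probe number in each run of 20, all spots shown. The red line is the median of all probes at that place; at time point 5 it is 2.72 at place 1 and 0.14 at place 4, and Ccnd2, Cks1b and Ccnd3 lie in this stretch.

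Most of the machinery had too few values to follow across the course. Of the 112 genes, 24 had no value on any array. On the 18 arrays 32 genes, these 24 included, had none, 32 had values at 1 to 5 time points, 13 at 6 to 8 and 35 at 9 or more. The 35 genes are 31.2% of the members, and 29.1% of all genes with a symbol had as many values. All 4 E2f genes on the array (E2f1, E2f3, E2f5 and E2f6) had no value, nor did the inhibitors Cdkn1b and Cdkn1c, the helicase subunits Mcm2 and Mcm6, the kinase Aurka or the cyclin Ccnb2. Of 33 replication genes 12 could be tested, of 20 kinases and Cks genes 8, of 11 cyclins 4, of 14 Cdc genes 4, of 13 genes of mitosis and checkpoints 3 and of 10 inhibitors 2. What follows rests mainly on these 35. The 13 genes with values at 6 to 8 time points enter only where a lower minimum or the F-test is named. Nothing is said of the others.

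Over the whole course the cell cycle genes did not move as 1 block. Of the 35 tested, 9 were higher and 4 were lower in the glutamine-varied flasks than in the constant-glutamine flasks, and 22 passed in neither direction. Called genes were 37.1% of the members, against 33.4% of all 4398 genes tested, of which 21.2% were higher and 12.2% lower, so the members' share lies near the background. Without the 2 effectors of Cdc42, called genes were 39.4% of 33. The median of the members' means was 0.04 and that of all genes 0.03. The test was limma on the mean of the time-point means against 0, called at an adjusted p under 0.05 after Benjamini-Hochberg over all genes tested, for genes with values at 9 or more time points. With all 20 arrays, 39 members could be tested, and 7 were higher and 2 lower, against 13.6% and 9.05% of all genes. With places 1 to 4 left out at time points 5 and 6, 10 were higher and 3 lower, against 23.4% and 12.8% of all genes. With blocks of 540 probes centred, 8 were higher and 6 lower, against 23.3% and 13.3% of all genes. Of the 35, Ccnd2, Cit and Mcm3 had too few values left to be tested with places 1 to 4 out. Before centring the array medians were 0.05 to 0.44, and without centring 24 were higher and 1 lower, against 67.0% and 1.57% of all genes. The ends of the order were both genes of mitosis. Ndc80, a kinetochore protein, had the highest mean of the called members, and Cit, a kinase of cytokinesis, had the lowest.

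**Figure D2:**
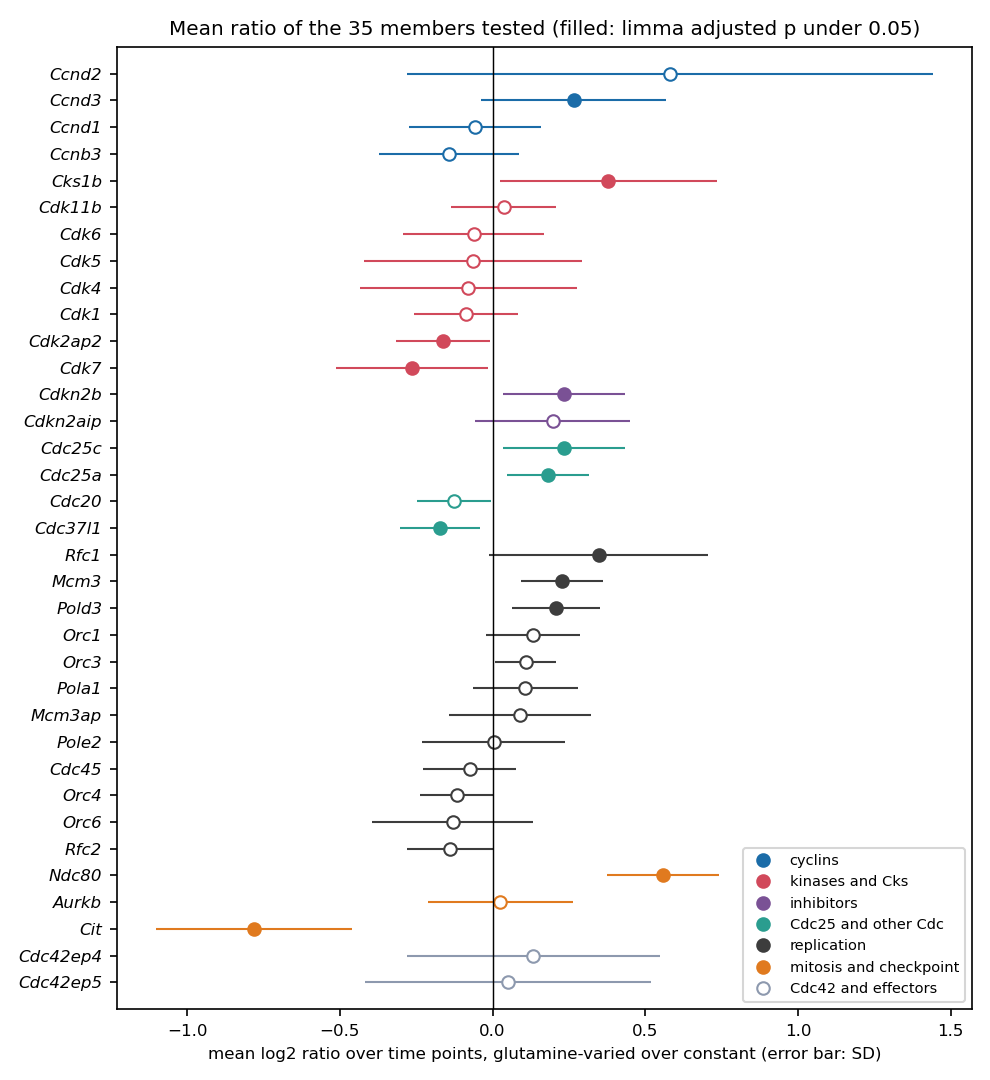
Mean log2 ratio over time points (glutamine-varied over constant-glutamine flasks) of the 35 members tested, by role, with bars of 1 SD over 9 to 11 time points. Filled points passed the test at an adjusted p under 0.05, 9 to the right of 0 and 4 to the left; Ccnd2, the open point at 0.58, has the widest bar.

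Promoters are shown for 4 of the higher genes and for Cit, as examples, chosen with their values known, of genes that kept their call in the mean under every alternative in which they could be tested. Ccnd3 and Cdc25c kept theirs as well and are not shown. Each run gives 250 bases before to 50 bases after the start of the transcript, 5′ to 3′ on the gene's strand, from RefSeq on GRCm38.p6. Capitals mark letters that match 1 of 3 motifs on either strand: the E2F forms TTTCCCGC, TTTCGCGC, TTTGCCGC and TTTGGCGC; the cell cycle homology region (CHR), TTTGAA; and the box CCAAT. The motifs do not overlap each other in these runs.
Ndc80, chr17:71526808-71527107, minus strand: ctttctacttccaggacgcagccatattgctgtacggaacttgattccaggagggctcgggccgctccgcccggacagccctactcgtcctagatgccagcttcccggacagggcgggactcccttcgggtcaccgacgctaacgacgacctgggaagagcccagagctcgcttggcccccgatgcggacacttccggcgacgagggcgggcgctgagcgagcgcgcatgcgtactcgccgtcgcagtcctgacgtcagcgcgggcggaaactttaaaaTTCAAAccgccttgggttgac
Cks1b, chr3:89418242-89418541, minus strand: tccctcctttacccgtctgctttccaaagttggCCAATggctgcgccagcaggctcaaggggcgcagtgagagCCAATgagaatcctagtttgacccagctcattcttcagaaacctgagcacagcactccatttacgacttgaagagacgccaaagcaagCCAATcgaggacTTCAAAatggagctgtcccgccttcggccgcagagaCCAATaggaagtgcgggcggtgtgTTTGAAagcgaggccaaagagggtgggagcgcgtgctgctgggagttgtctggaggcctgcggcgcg
Rfc1, chr5:65335590-65335889, minus strand: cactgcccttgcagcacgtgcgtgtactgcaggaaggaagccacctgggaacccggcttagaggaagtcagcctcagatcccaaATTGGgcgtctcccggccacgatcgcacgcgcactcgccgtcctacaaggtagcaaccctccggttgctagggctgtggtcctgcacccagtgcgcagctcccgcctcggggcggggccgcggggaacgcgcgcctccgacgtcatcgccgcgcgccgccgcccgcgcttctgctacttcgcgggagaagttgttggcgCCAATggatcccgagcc
Cdc25a, chr9:109875329-109875628, plus strand: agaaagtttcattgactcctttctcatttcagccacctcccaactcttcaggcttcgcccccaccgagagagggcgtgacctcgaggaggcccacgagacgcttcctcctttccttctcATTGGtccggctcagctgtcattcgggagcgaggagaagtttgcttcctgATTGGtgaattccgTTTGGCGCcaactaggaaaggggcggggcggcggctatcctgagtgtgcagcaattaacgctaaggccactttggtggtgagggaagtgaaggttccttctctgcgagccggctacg
Cit, chr5:115845406-115845705, plus strand: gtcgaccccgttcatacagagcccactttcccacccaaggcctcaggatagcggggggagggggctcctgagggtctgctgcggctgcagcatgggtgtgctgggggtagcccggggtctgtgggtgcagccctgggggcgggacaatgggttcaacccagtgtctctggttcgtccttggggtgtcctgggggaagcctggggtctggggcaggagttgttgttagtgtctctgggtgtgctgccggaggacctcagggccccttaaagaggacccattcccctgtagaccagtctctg

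In these windows Ndc80 held 1 CHR match, 29 bases after the start. Cks1b held 2 CHR matches, 77 and 17 bases before the start, with 4 CCAAT boxes. Cdc25a held 1 E2F match, 67 bases before the start, with 2 CCAAT boxes, whereas Rfc1 held 2 CCAAT boxes and Cit none of the 3 motifs. Of 33 promoters of 29 tested members, 24.2% held E2F letters, against 18.1% of 116 promoters of all matched members and 2.26% of 32851 promoters of all genes. CHR letters were in 27.3% of the tested members' promoters and in 17.9% of all promoters, and CCAAT in 42.4% and 37.4%. Among called members, 3 of 9 promoters of the higher genes held E2F letters and none of 4 promoters of the lower genes did. A match is a run of letters and not evidence of binding.

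Ndc80 belongs to the outer kinetochore, which ties chromosomes to spindle microtubules. Its values were 0.70 and 0.52 at time point 1, 0.67 and 0.34 at 2, 0.47 and 0.31 at 3, 0.86 and 0.58 at 4, 0.43 at 5, 0.84 at 6, 0.73 and 0.75 at 7, 0.43 and 0.65 at 8, 0.86 and 0.62 at 9, 0.34 at 10 and 0.29 at 11. All 18 arrays were above 0, between 0.29 and 0.86. The mean was 0.56 ± 0.18 (SD, n = 11 time points, limma adjusted p = 3.409e-05). Taken singly, 8 of 11 time points passed the test, those being 1 to 4 and 6 to 9. The test of differences among time points, described further on, did not pass (F-test adjusted p = 0.412).

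Cit, the citron kinase that acts at the contractile ring, moved the other way. The arrays read -0.59 and -0.71 at time point 1, -0.85 and -0.63 at 2, -0.50 and -0.84 at 3, -0.85 and -0.71 at 4, -0.03 at 5, -1.15 at 6, -0.99 and -0.65 at 7, -0.79 at 8, -1.2 and -1.06 at 9 and -1.06 at 10. All 16 arrays were below 0, and every array but that of time point 5 was at -0.5 or lower. The mean was -0.78 ± 0.32 (SD, n = 10 time points, limma adjusted p = 5.563e-05). At single time points Cit was lower at 9 of the 10 at which it was measured. Its probe stands at place 4, and the value nearest to 0 was on the array of time point 5. Without time points 5 and 6 the mean was -0.83 (limma adjusted p = 1.217e-05).

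Aurkb, the Aurora kinase of the chromosomal passenger complex, was the remaining gene of mitosis that could be tested, at 0.03 ± 0.24 (SD, n = 11, limma adjusted p = 0.807).

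**Figure D3:**
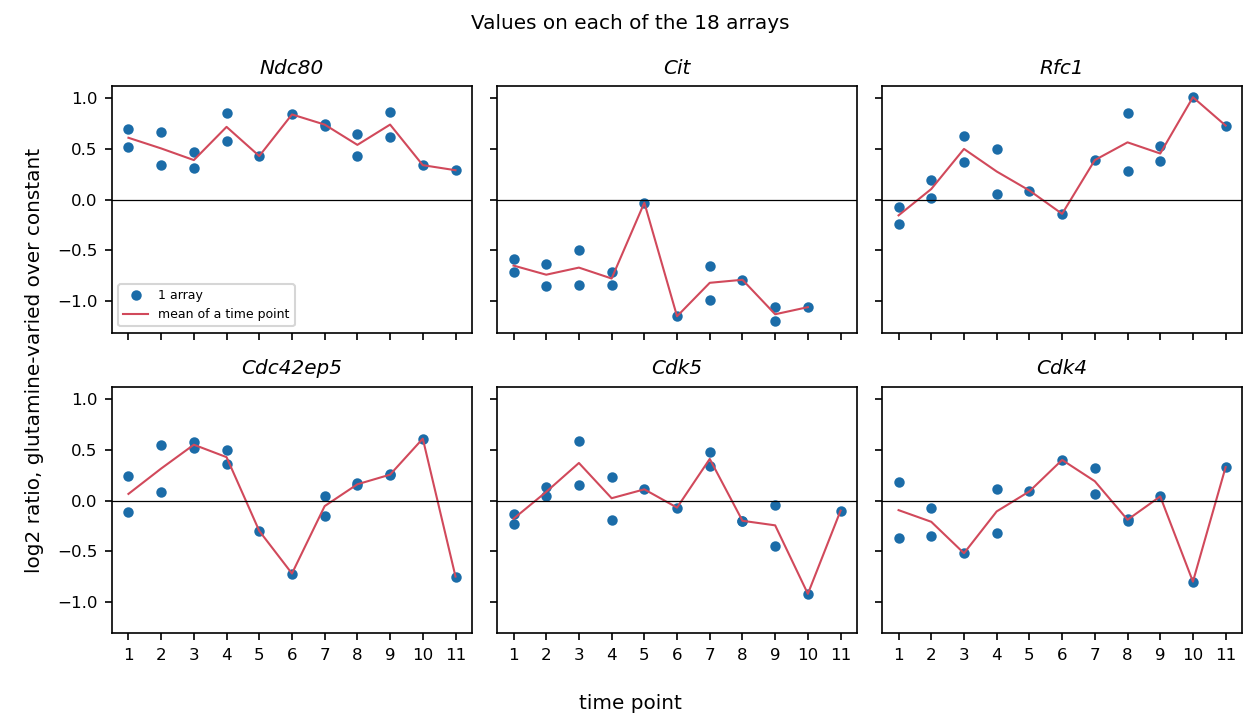
Log2 ratio (glutamine-varied over constant-glutamine flasks) on each of the 18 arrays by time point for 6 members; blue points are arrays and the red line joins time-point means. Ndc80 lies above 0 and Cit below 0 on each array with a value, and Cdk5 and Cdk4 reach -0.92 and -0.80 at time point 10.

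Among the kinases and their partners, 1 of 8 rose and 2 fell, 37.5%, against the 33.4% of all genes given above. Cks1b, a small subunit that binds cyclin-dependent kinases and helps degrade the inhibitor p27, had 0.34 and 0.17 at time point 1, 0.31 at 2, 0.22 and 0.25 at 3, 0.45 and 0.64 at 4, 1.36 at 5, 0.50 at 6, 0.36 and 0.29 at 7, 0.02 and 0.32 at 8, 0.25 and -0.16 at 9, 0.18 at 10 and 0.24 at 11. It was above 0 on 16 of 17 arrays, and its highest value was at time point 5. The mean was 0.38 ± 0.36 (SD, n = 11, limma adjusted p = 0.00655). The probe stands at place 2. Leaving out places 1 to 4 on the affected arrays gave a mean of 0.26 (limma adjusted p = 0.00365).

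Cdk7, the kinase that activates other cyclin-dependent kinases and serves the transcription factor TFIIH, had 0.00 and -0.10 at time point 1, -0.55 at 2, -0.47 at 3, -0.60 and -0.39 at 4, -0.37 at 5, -0.31 and -0.14 at 7, -0.20 and -0.03 at 8, 0.22 at 9 and -0.33 at 11. Of its 13 arrays 11 were below 0. The mean was -0.26 ± 0.25 (SD, n = 9, limma adjusted p = 0.0204). Cdk2ap2, a small protein related to a partner of Cdk2, had 0.08 and 0.05 at time point 1, 0.06 and -0.17 at 2, -0.09 and -0.03 at 3, 0.06 and -0.18 at 4, -0.14 at 5, -0.09 and -0.14 at 7, -0.22 and -0.14 at 8, -0.36 and -0.37 at 9, -0.29 at 10 and -0.43 at 11. Its mean was -0.16 ± 0.15 (SD, n = 10, limma adjusted p = 0.0421). Both calls depended on the arrays used. That of Cdk7 was lost with all 20 arrays (adjusted p = 0.102) and without time point 2, 3 or 4 (adjusted p = 0.0517 to 0.0556). That of Cdk2ap2 was lost without time point 2, 3, 4, 5, 7, 8, 9, 10 or 11 in turn. With blocks of 540 probes centred its mean was -0.04 (adjusted p = 0.575), and among genes with 6 or more time points its adjusted p was 0.0503. Without centring both means were above 0, at 0.0033 for Cdk7 and 0.10 for Cdk2ap2, neither of them past the test.

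The kinases at the core of the cycle did not pass in the mean. Cdk1, the mitotic kinase, was at -0.09 ± 0.17, and Cdk4 and Cdk6, the partners of D cyclins, were at -0.08 ± 0.35 and -0.06 ± 0.23 (SD, n = 11 each). Cdk5, whose known roles are mostly in neurons, was at -0.07 ± 0.36, and Cdk11b, tied to splicing and transcription, was at 0.04 ± 0.17 (SD, n = 11 each). The limma adjusted p of these 5 genes lay between 0.253 and 0.653.

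The D cyclins, which carry growth signals to Cdk4 and Cdk6, had means on both sides of 0. Ccnd3 had 0.55 and 0.12 at time point 1, 0.37 and 0.10 at 2, -0.03 and 0.11 at 3, 0.21 and 0.36 at 4, 1.08 at 5, 0.31 at 6, 0.34 and 0.02 at 7, 0.40 and 0.27 at 8, 0.30 and 0.07 at 9, -0.05 at 10 and -0.01 at 11. It was above 0 on 15 of 18 arrays, with a mean of 0.27 ± 0.30 (SD, n = 11, limma adjusted p = 0.0225). Its probe stands at place 4. With places 1 to 4 left out on the affected arrays the mean was 0.17 (limma adjusted p = 0.0379).

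Ccnd2 had -0.05 and 0.36 at time point 1, 0.34 and 0.52 at 2, 0.18 and 0.19 at 3, 0.32 and 0.37 at 4, 2.91 at 5, 0.98 at 6, -0.16 and 0.12 at 7, 0.28 and -0.04 at 8, 0.38 and 0.17 at 9 and 0.43 at 11. The values of 2.91 at time point 5 and 0.98 at time point 6 stand apart from the others, of which the highest was 0.52. The mean of 0.58 ± 0.86 did not pass (SD, n = 10, limma adjusted p = 0.0518). Its probe stands at place 2, where the median of all probes was 1.24 at time point 5. Without time points 5 and 6 the mean was 0.24 and passed (limma adjusted p = 0.0103). Ccnd1 was at -0.06 ± 0.22 and Ccnb3, a cyclin of the B type, at -0.14 ± 0.23 (SD, n = 11 each), and neither passed (limma adjusted p = 0.521 and 0.119). The difference between the D cyclins was not tested.

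Of the inhibitors, Cdkn2b, which encodes p15 and holds Cdk4 and Cdk6 inactive, had 0.43 and 0.28 at time point 1, 0.20 and -0.44 at 2, 0.17 and 0.06 at 3, 0.26 and 0.58 at 4, 0.61 at 5, 0.28 at 6, 0.25 and -0.08 at 7, 0.11 and 0.27 at 8, 0.39 and -0.16 at 9, 0.15 at 10 and 0.38 at 11. It was above 0 on 15 of 18 arrays, with a mean of 0.23 ± 0.20 (SD, n = 11, limma adjusted p = 0.00984). The call was lost when blocks of 540 probes were centred instead (mean 0.13, adjusted p = 0.116). Its probe stands at place 4, and with places 1 to 4 left out at time points 5 and 6 the mean was 0.19 (limma adjusted p = 0.0322). Cdkn2aip, a binding partner of Arf, was at 0.20 ± 0.25 (SD, n = 10, limma adjusted p = 0.0605).

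Cdkn2a, the neighbour of Cdkn2b that encodes p16 and Arf, had values at only 8 time points and was tested with the 13 members measured at 6 to 8. Of these 13, 3 passed, all lower, when genes with 6 or more time points were tested. In that test 28.7% of 6214 genes passed in either direction, and 4398 of the 6214 had 9 or more time points. The share for genes at 6 to 8 time points, or for lower calls alone, is not given here. Cdkn2a had -0.51 and -1.40 at time point 1, -0.65 and -0.61 at 2, -1.13 and -0.80 at 3, -1.18 at 4, -0.02 at 5, 0.02 at 7, -0.43 at 9 and -0.12 at 11. Of its 11 arrays 10 were below 0, and the values nearest 0 were at time points 5, 7 and 11. The mean was -0.53 ± 0.47 (SD, n = 8, limma adjusted p = 0.0113). Its probe stands at place 3, where the median of all probes at time point 5 was 0.46, and with places 1 to 4 left out at time points 5 and 6 the mean was -0.61 over 7 time points (limma adjusted p = 0.00345). Cdk5rap3, a binding partner of the Cdk5 activator, was at -0.35 ± 0.17 and below 0 on all 13 of its arrays (SD, n = 8 time points, limma adjusted p = 0.0034). Cdk18, a kinase of the PCTAIRE group, was at -0.24 ± 0.07 and below 0 at 8 of 8 time points (SD, limma adjusted p = 0.00817).

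Both Cdc25 phosphatases that could be tested rose. These enzymes remove the inhibitory phosphates of cyclin-dependent kinases, Cdc25a from G1 on and Cdc25c at the entry to mitosis. Cdc25c had -0.08 and 0.29 at time point 1, 0.21 and 0.23 at 2, 0.48 and 0.40 at 3, 0.32 and 0.09 at 4, 0.52 at 5, 0.14 at 6, 0.44 and 0.67 at 7, 0.51 and 0.01 at 8, -0.10 and 0.30 at 9, -0.12 at 10 and 0.15 at 11. It was above 0 on 15 of 18 arrays, with a mean of 0.23 ± 0.20 (SD, n = 11, limma adjusted p = 0.0103). Cdc25a had 0.39 and 0.26 at time point 1, 0.32 and 0.06 at 2, 0.13 and 0.20 at 3, 0.17 and 0.42 at 4, 0.07 at 5, 0.19 at 6, 0.46 and -0.24 at 7, 0.46 and 0.43 at 8, 0.30 and 0.07 at 9, -0.03 at 10 and 0.05 at 11. It was above 0 on 16 of 18 arrays, with a mean of 0.18 ± 0.14 (SD, n = 11, limma adjusted p = 0.0144).

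Cdc37l1, related to the Hsp90 partner Cdc37, had 0.00 at time point 1, -0.02 and -0.21 at 2, -0.18 and -0.41 at 3, 0.01 and -0.40 at 4, -0.08 at 6, -0.45 and -0.32 at 7, 0.05 and -0.08 at 8, -0.35 and -0.05 at 9 and -0.26 at 11. Its mean was -0.17 ± 0.13 (SD, n = 9, limma adjusted p = 0.0355). The call was lost with all 20 arrays (mean -0.06, adjusted p = 0.666) and without time point 2, 3, 4, 7, 9 or 11, and without centring the mean was 0.09. Cdc20, which switches on the anaphase-promoting complex, was at -0.13 ± 0.12 and did not pass (SD, n = 10, limma adjusted p = 0.082).

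Of the 12 replication genes tested, 3 rose and none of the other 9 passed in either direction. That is 25% higher, against the 21.2% of all genes given above. Rfc1, the large subunit of the clamp loader, had -0.24 and -0.07 at time point 1, 0.02 and 0.19 at 2, 0.63 and 0.37 at 3, 0.50 and 0.06 at 4, 0.09 at 5, -0.14 at 6, 0.39 at 7, 0.85 and 0.28 at 8, 0.38 and 0.53 at 9, 1.01 at 10 and 0.73 at 11. The lowest arrays were those of time points 1 and 6 and the highest was at time point 10. Its mean was 0.35 ± 0.36 (SD, n = 11, limma adjusted p = 0.0112), while Rfc2, a small subunit of the same complex, was at -0.14 ± 0.14 (SD, n = 10, limma adjusted p = 0.0693).

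Mcm3, a subunit of the helicase, had 0.32 and 0.07 at time point 1, 0.23 and 0.16 at 2, 0.24 and -0.13 at 3, 0.07 and 0.28 at 4, 0.24 at 5, 0.50 at 6, 0.42 and 0.13 at 7, 0.47 and -0.31 at 9 and 0.33 at 11. Its mean was above 0 at 9 of 9 time points, at 0.23 ± 0.13 (SD, limma adjusted p = 0.00955). Both arrays of time point 9 lay far apart, at 0.47 and -0.31. The probe stands at place 3, and without time points 5 and 6 the mean was 0.19 (limma adjusted p = 0.0305). Pold3, a subunit of DNA polymerase delta, had 0.20 and 0.38 at time point 1, 0.47 and 0.20 at 2, 0.13 and 0.09 at 3, 0.42 and 0.52 at 4, 0.29 at 5, 0.14 at 6, 0.16 and 0.05 at 7, 0.27 and 0.21 at 8, 0.33 and 0.24 at 9, 0.06 at 10 and -0.03 at 11. It was above 0 on 17 of 18 arrays, with a mean of 0.21 ± 0.14 (SD, n = 11, limma adjusted p = 0.0075). With all 20 arrays neither passed, at a limma adjusted p of 0.126 for Mcm3 and 0.189 for Pold3. With blocks of 540 probes centred the mean of Mcm3 was 0.12 and did not pass (limma adjusted p = 0.0814).

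The subunits of the origin recognition complex lay on both sides of 0. Orc1 was at 0.13 ± 0.15 and Orc3 at 0.11 ± 0.10, whereas Orc4 was at -0.12 ± 0.12 (SD, n = 11 each) and Orc6 at -0.13 ± 0.26 (SD, n = 9). None passed, with limma adjusted p between 0.0745 and 0.239. The remaining replication genes were Pola1 at 0.11, Mcm3ap at 0.09, Pole2 at 0.0034 and Cdc45 at -0.08, none of them past the test. Of the 2 effectors of Cdc42, Cdc42ep4 was at 0.13 ± 0.41 (SD, n = 10) and Cdc42ep5 at 0.05 ± 0.47 (SD, n = 11), also without a call.

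The members were next compared among time points. A moderated F-test asked whether the time-point means of a gene were equal, for genes with values on 14 or more of the 18 arrays. Of 35 members tested 10 passed, 28.6%, against 30.6% of 4023 genes. This set of 35 holds Cdk18 and not Cdk7, which had values on 13 arrays. Without the 2 effectors of Cdc42, 8 of 33 passed, 24.2%. In order of adjusted p these were Ccnd2, Cdc42ep5, Cdc42ep4, Cdk5, Rfc1, Cks1b, Cdk4, Cit, Ccnd3 and Orc6. Only 6 of them passed with places 1 to 4 left out on the arrays of time points 5 and 6 (Cdc42ep4, Cdc42ep5, Cdk4, Cdk5, Orc6 and Rfc1), against 25.7% of all genes, and 4 without time points 5 and 6 (Cdc42ep5, Cdk4, Cdk5 and Rfc1), against 19%. With blocks of 540 probes centred 11 passed, against 27.1% of all genes, 9 of them among the 10. With all 20 arrays only Ccnd2 passed. The share over all genes in that setting is not given here, so this count is no result about the members by itself.

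Cdc42ep5, an effector of Cdc42 that acts on septins and actin, had -0.11 and 0.24 at time point 1, 0.08 and 0.55 at 2, 0.52 and 0.58 at 3, 0.36 and 0.50 at 4, -0.30 at 5, -0.72 at 6, 0.04 and -0.15 at 7, 0.17 and 0.15 at 8, 0.25 and 0.26 at 9, 0.61 at 10 and -0.75 at 11. It was higher at time points 3, 4 and 10 and lower at 6 and 11, each past the test. The values of -0.72 at time point 6, 0.61 at time point 10 and -0.75 at time point 11 rest on 1 used array each. The second arrays gave -0.02 at time point 6 and -0.65 at time point 10, the latter of opposite sign to the value used. Both were left out because they stand apart, as given above, so they are weak repeats. The F-test gave an adjusted p of 1.01e-06, and of 0.000397 without time points 5 and 6. Cdc42ep4, an effector of the same family, had -0.22 and -0.14 at time point 1, 0.05 and -0.05 at 2, 0.09 and 0.11 at 3, -0.01 and -0.09 at 4, 1.19 at 5, -0.01 at 6, -0.47 and -0.05 at 7, 0.08 and -0.17 at 8, 0.02 and 0.34 at 9 and 0.40 at 11. It passed at time point 5 alone, at 1.19 on its 1 array, and without time points 5 and 6 the F-test gave an adjusted p of 0.287.

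Cdk5 had -0.13 and -0.23 at time point 1, 0.13 and 0.04 at 2, 0.15 and 0.59 at 3, 0.24 and -0.19 at 4, 0.11 at 5, -0.07 at 6, 0.34 and 0.48 at 7, -0.20 and -0.20 at 8, -0.45 and -0.04 at 9, -0.92 at 10 and -0.10 at 11. It was higher at time point 7, at 0.41 (limma adjusted p = 0.0206), and lower at time point 10, at -0.92 (limma adjusted p = 0.000405). Cdk4 had -0.37 and 0.18 at time point 1, -0.07 and -0.35 at 2, -0.52 at 3, -0.33 and 0.11 at 4, 0.09 at 5, 0.40 at 6, 0.32 and 0.06 at 7, -0.20 and -0.18 at 8, 0.04 at 9, -0.80 at 10 and 0.33 at 11. It was lower at time point 10, at -0.80 (limma adjusted p = 0.00279), and passed at no other. Its F-test call was lost without centring (adjusted p = 0.0528). Time point 10 has 1 usable array, and the second array, left out, gave 0.20 for Cdk5 and no value for Cdk4.

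Rfc1 was higher at time points 3, 8, 9, 10 and 11, between 0.46 and 1.01, and had time-point means of -0.16 and -0.14 at time points 1 and 6. At time point 10 the array left out gave 0.12, against 1.01 on the array used. The F-test adjusted p of Rfc1 was 0.000639, and 0.00281 without time points 5 and 6. Orc6, the smallest subunit of its complex, had -0.57 and -0.25 at time point 1, -0.41 and -0.23 at 2, -0.39 and -0.14 at 3, -0.34 and -0.58 at 4, -0.11 and 0.26 at 7, -0.13 at 8, -0.17 and -0.01 at 9, 0.07 at 10 and 0.35 at 11. It was lower at time points 1 and 4, at -0.41 and -0.46, and at 0.35 at time point 11, without a call there. Its F-test adjusted p of 0.0433 was the closest to the threshold, and the call was lost in 7 of 14 fits that left out 1 array.

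**Figure D4:**
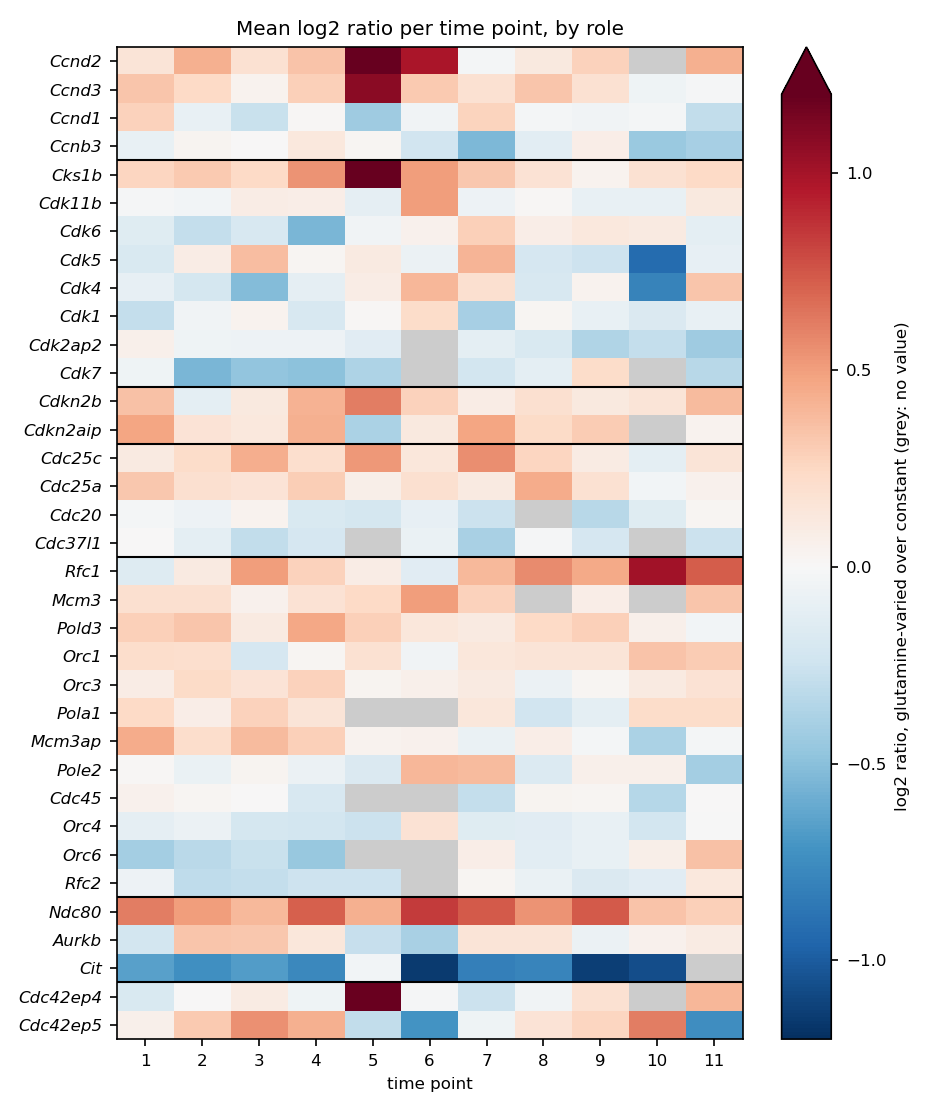
Time-point means of the log2 ratio (glutamine-varied over constant-glutamine flasks) of the members with values at 9 or more time points; rows are genes, columns are time points 1 to 11, red is above 0, blue below 0 and missing values are grey, with the colour scale ending at ±1.2 although Ccnd2 reached 2.91. Ndc80 is red and Cit blue over nearly the whole row, and Ccnd2, Cks1b, Ccnd3 and Cdc42ep4 share a high column at time point 5.

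Gene by gene and time point by time point, 53 of 365 pairs passed, 34 higher and 19 lower. That is 14.5%, against 14.2% of 42121 pairs of all genes. Without the effectors of Cdc42, 47 of 344 pairs passed, 13.7%. Time points 4 and 7 had the most member calls, 9 of 35 each, against 24.2% and 27.2% of all genes tested there. Time point 2 had 2 of 35, against 3.81% of all genes, and time point 11 had 2 of 34, against 3.80%. Time points 1 and 3 had 5 of 35 each, against 20.1% and 11.6% of all genes, and time point 9 had 3 of 35, against 9.64%. The counts were 5 of 30 at time point 5, against 20%, 4 of 29 at time point 6, against 14.7%, 4 of 33 at time point 8, against 6.54%, and 5 of 29 at time point 10, against 14.8%. Cit and Ndc80 account for 17 of the 53 pairs.

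Some members passed at single time points without a call in the mean. Cdk6 was at -0.55 at time point 4 (limma adjusted p = 0.00267), Ccnb3 at -0.54 at time point 7 (adjusted p = 0.03) and Cdk1 at -0.40 at time point 7 (adjusted p = 0.0236). The value of Ccnb3 rests on 1 array, since the second array of time point 7 had none for it. Cdkn2aip was higher at time points 1, 4 and 7, between 0.43 and 0.47. Mcm3ap, a partner of Mcm3, was at 0.45 at time point 1 (adjusted p = 0.0141), and Pole2, a subunit of DNA polymerase epsilon, was at 0.38 at time point 7 (adjusted p = 0.0331).

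Both arrays of a time point agreed only in part for these genes. Over the 7 time points with 2 usable arrays, the correlation of 30 to 35 members was 0.527 to 0.714, and the median difference between both arrays was 0.14 to 0.23. The largest difference was 0.78, for Mcm3 at time point 9.

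The members did not share 1 profile over the course. Over all pairs of the 22 members with values at all 11 time points, the median correlation of time-point means was -0.0113, against 0.0237 over 2574 genes. Without time points 5 and 6 it was 0.0582, against 0.0348. These are descriptions over 11 and 9 time points of shared arrays. Without time points 5 and 6, the pair with the highest correlation was Cdc25c and Cdk5, at r = 0.927. Over all 11 time points this pair was at r = 0.876, and pairs were not ranked there.

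For the 2 members with the smallest F-test p, the most similar genes over time-point means were looked up among all genes with at least 10 shared time points. For Ccnd2 they were Ppan, Itgb1bp1 and Gpd2, at r = 0.992, 0.987 and 0.986. These 3 genes read 2.73, 1.71 and 2.82 at time point 5, and without time points 5 and 6 the correlations were 0.693, 0.703 and 0.542. For Cdc42ep5 they were Hsd3b1, Kdm8 and Ccdc28b, at r = 0.97, 0.968 and 0.961, and these remained at 0.951, 0.955 and 0.958 without time points 5 and 6. All come from the same arrays.

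Genes of the same pathways outside the symbol rule were counted in 3 lists by the same test, in which 21.2% of all genes were higher and 12.2% lower. No list was tested against these shares. Of 9 other replication genes, 2 were higher: Chaf1a, a histone chaperone at the fork, at 0.28 ± 0.15 (11 of 11 time points above 0, limma adjusted p = 0.00141) and Uhrf1, which maintains DNA methylation, at 0.15 ± 0.15 (limma adjusted p = 0.0399). With blocks of 540 probes centred Uhrf1 was at 0.08 and did not pass (limma adjusted p = 0.199). Of 11 other mitosis genes, Hmgb2 at 0.26 and Mki67, the Ki-67 antigen of cycling cells, at 0.23 were higher (limma adjusted p = 0.00566 and 0.046). The spindle motor Kif11 at -0.17 was lower (limma adjusted p = 0.0372). With the first 4 places left out on the affected arrays, Mki67 could not be tested, so its call was not checked there. Hmgb2 and Kif11 kept their calls in that setting (limma adjusted p = 0.00402 and 0.0348). Of 10 genes of growth arrest, pocket proteins and damage checkpoints, the stress gene Gadd45b at 0.48 was higher, and Mycn at -0.29 and the checkpoint clamp subunit Rad1 at -0.22 were lower (limma adjusted p = 0.000181, 0.00141 and 0.0131). The medians of the 3 lists were 0.05, -0.03 and -0.06, against 0.03 over all genes.

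Marker genes of cell types were looked up as well. Both channels come from the same cell line, so ratios between them cannot test the label of the cells. Having a value is no test of it either, since only 23.8% of all genes with a symbol had none. Of 11 hepatocyte markers on the array all had values, and of 2 markers of fetal liver and hepatoma that had values Gpc3 was higher, at 0.19. Of 7 hepatocyte markers tested 4 were lower, namely Alb at -0.59, Apoe at -0.34, Krt8 at -0.29 and Fgb at -0.27, against 12.2% of all genes. Apoa1 at 0.0028, Apoa2 at -0.06 and Hnf4a at 0.08 did not pass. With blocks of 540 probes centred Krt8, Apoe and Gpc3 did not pass either (limma adjusted p = 0.281, 0.134 and 0.182). Krt8 could not be tested with the first 4 places left out on the affected arrays. All 3 macrophage markers on the array lacked a value, while 6 fibroblast and stellate and 4 endothelial markers had some. Of 2 fibroblast and stellate markers tested, Col1a2 was higher, at 0.21, and Acta2 was at -0.0028 without a call. The 1 endothelial marker tested, Kdr, was higher, at 0.21. Ratios do not give levels, and the part of these markers in the members' results was not tested.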

How the data were processed

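The deposited values are 1 column per array of the series' value table; their unit was taken as log2 ratio from the values, since what the authors did to make them is not stated in the labels or in the file. Symbols came from the platform annotation, and all 118 member probes matched the reference table with the same symbol. Members and gene lists were chosen with earlier results of these data known. Named are the members called in any test, the other members with values at 9 or more time points, called genes of the pathway lists, the genes most like 2 members and, chosen after their values were seen, the marker genes.

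Each array was centred on its median, and probes of a symbol were averaged. Arrays of a time point were averaged before the mean was tested. Tests used limma 3.58.1 in R 4.3.3, with Benjamini-Hochberg adjustment over all genes tested and calls at an adjusted p under 0.05. The F-test takes its spread from the time points with 2 arrays; single time points come from the same fit, so a time point with 1 array is assumed to vary like the others. Missing values were not imputed. The steps were tested on simulated data. Left out were the second arrays of time points 6 and 10 and, at time points 5 and 6, the first spot of each run of 20 probe numbers. Precision is limited by the number of arrays. Alternatives were all 20 arrays, no centring, blocks of 540 probes centred, other minimum numbers of values, each time point or array left out, the r mark of the titles as a block and, chosen after seeing the data, places 1 to 4 left out and time points 5 and 6 left out.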

Additional observations from a re-analysis of the deposited data

Results flagged for a closer look

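For 10 members the ratio of glutamine-varied over constant-glutamine flasks differed between time points in the F-test. The adjusted p was 6.3e-17 for Ccnd2, 1.01e-06 for Cdc42ep5, 8.56e-05 for Cdc42ep4, 0.000316 for Cdk5, 0.000639 for Rfc1, 0.00169 for Cks1b, 0.00494 for Cdk4, 0.0108 for Cit, 0.0319 for Ccnd3 and 0.0433 for Orc6. For Ccnd2, Cks1b, Cit and Ccnd3, with probes at places 2 to 4 of a run of 20, the adjusted p with places 1 to 4 left out at time points 5 and 6 was 0.464, 0.604, 0.357 and 0.69. Cdk5 and Cdk4, at place 3, were at 0.0001 and 0.0112 there. Which glutamine level each time point had is not known, so no member's course was set against it.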

How the results depend on the processing

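The counts were 9 members higher and 4 lower in the mean, 10 different among time points, and 34 pairs higher and 19 lower at single time points. Ndc80, Cks1b, Rfc1, Ccnd3, Cdc25a and Cdc25c kept their call in the mean in all 21 alternatives, and Cit in the 19 in which it could be tested. With all 20 arrays the counts were 2 lower of 39 members tested, 1 different of 35, and 11 pairs higher and 4 lower of 374. For the differences and the pairs, the share over all genes with all 20 arrays is not given here. Without centring, where 67.0% of all genes were higher, they were 24 higher and 1 lower, with 152 pairs higher and 11 lower, and the means of Cdc37l1, Cdk2ap2 and Cdk7 were 0.092, 0.10 and 0.0033, of opposite sign to the centred ones. With places 1 to 4 left out, 6 differed among time points. Without time points 5 and 6, 8 were lower and 4 differed. For the lower calls there, and for the pairs without centring, the share over all genes is not given here. Among 22 members with values at all 11 time points, limma called 0 lower and 1 (Orc4) at an unadjusted p under 0.05. The 4 members called lower in the main fit could not be among these 22. Cit and Cdk2ap2 had values at 10 time points, and Cdc37l1 and Cdk7 at 9. The 0 therefore says nothing of their calls. With values on all 18 arrays required, fewer members could be tested, 5 differed, and 4 pairs were lower. The share over all genes in that setting is not given here, so these counts are no loss of calls by themselves. Leaving out 1 time point gave 9 to 11 higher and 1 to 8 lower; the lower count was 1 without time point 2, 3 or 4, 2 without 7 or 9 and 8 without 6. Leaving out 1 array gave 8 to 11 different, 30 to 36 pairs higher and 17 to 22 lower. With the r mark as a replicate block, 10 differed, with 31 pairs higher and 19 lower; the labels do not say that r pairs arrays across time points, and the block changed no call of a named member in the F-test. The members tested changed with the settings as well. The mean needed 9 time points in the main fit, 8 with 1 left out and 7 without time points 5 and 6. Of the 35 members of the main fit, 16 were called without time points 5 and 6, whereas the counts over all members tested there were 11 higher and 8 lower. Counts can therefore differ by the members tested as well as by their calls. Other reasons for the moves were not tested.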
